A study of Mus musculus and Mus musculus
Oryx dammah with 30 samples.

Results

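The Obox family was followed in mouse embryos that had received nuclei of C2C12 cells, a myoblast line from C3H mice. Its 8 members, Obox1, Obox2, Obox3, Obox5, Obox6, Obox7, Obox8 and Crxos, were chosen by gene name in 3 expression tables, of 53023 genes in the four-cell and replication experiments and 55364 in the two-cell experiment, and all 8 were present in every table. For description they were then divided by their response to α-amanitin, a toxin that blocks RNA polymerase II. Because this division used the response itself, it is no separate evidence for it, and each member was tested singly against all genes.

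Obox genes encode homeodomain proteins, transcription factors that bind DNA through a short helical domain. The genes lie in a cluster on mouse chromosome 7 near Crx, and they are known for expression in oocytes and preimplantation embryos. Some family mRNAs are stored by the growing oocyte, whereas others are made when the embryo's genome is switched on at the two-cell stage, and the OBOX proteins take part in that activation. An mRNA that is made after the toxin is added is lost when Pol II is blocked, whereas an mRNA already present can remain until it decays.

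Recipients were embryos from C57BL/6 oocytes and DBA/2 sperm, held before division with 0.1 µg/ml demecolcine, a drug that disrupts microtubules. In the four-cell experiment, demecolcine began at 40 hours post insemination (hpi), nuclei were transferred from 46 hpi, and pools of 3 embryos were collected at 70 hpi, with 3 libraries cultured with and 3 without α-amanitin. In the two-cell experiment, transfer began at 21 hpi (early) or 30 hpi (late), embryos were collected at 45 or 54 hpi, and pools of 5 embryos gave 6 libraries with and 6 without α-amanitin. The two-cell columns form 2 sets of 6 by name, of which one carries the letter R. Columns with Am in the name were taken as treated, and the names do not say which set was early. The replication experiment compared the groups D and DR, 3 libraries of 4 embryos each, all in demecolcine and without α-amanitin, of which one received nuclei at 40 hpi, before four-cell recipients had finished copying their DNA, and the other at 46 hpi. The labels do not say which letter stands for which. Every culture lasted 24 h after transfer. All embryos carried donor and recipient nuclei together and the tables do not separate the genomes, so that a level below is a sum over them. In pooled embryos, fewer transcribing nuclei and less RNA per nucleus cannot be told apart.

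Expression is given as FPKM, fragments scaled to gene length in kilobases and to 1000000 counted reads, the scale on which genes of different length can be compared within a library. Libraries held 1136771 to 3101002 counted reads in the four-cell experiment and approximately 4712268 to 10503779 in the two-cell and 2603946 to 19181387 in the replication experiment. The members took 0.293% to 0.520% of the reads of a four-cell library and 0.0676% to 0.468% of a two-cell library. All 8 embryo markers were detected in each experiment, with summed FPKM of 7250 to 12294 without and 834 to 7681 with α-amanitin at the two-cell stage and of 8782 to 9963 and 12198 to 16060 at the four-cell stage. The summed FPKM of 12 myoblast markers ranged from 83.7 to 1341 without and from 267 to 2181 with α-amanitin at the two-cell stage and from 9.73 to 125 and 6.15 to 1038 at the four-cell stage, with 1 of the 12 listed at 0 throughout (Myog and Col1a1, respectively). In the replication experiment it was 61.5 to 187 in DR and 64.1 to 220 in D. The embryo markers there summed to 3422 to 4066 in DR and 4602 to 5754 in D, without overlap, which 12.2% of single genes tested also showed. Most of that sum came from 1 marker, Dppa3, with means of 3719 in DR and 4960 in D. Dppa3 also made up most of the four-cell sums, with means of 9445 without and 13809 with α-amanitin. Of 8 cumulus cell markers, 8, 6 and 8 stayed under an FPKM of 1 in all four-cell, two-cell and replication libraries, and their sum was at most 5.49. The part of these markers in the results was not tested.

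All members lay on chromosome 7 of the mm10 build and were annotated as protein coding. From low to high coordinate they were Obox8 (chr7:14331436-14333557, minus strand), Obox7 (chr7:14659496-14665996, plus), Obox2 (chr7:15388721-15398545, plus), Obox1 (chr7:15388948-15556866, plus), Obox3 (chr7:15479825-15639902, minus), Obox5 (chr7:15750131-15759800, plus), Obox6 (chr7:15833241-15839678, minus) and Crxos (chr7:15882617-15904020, plus). The gene model of Obox1 begins inside that of Obox2, so the pair overlaps. On the opposite strand, the gene model of Obox3 also overlaps that of Obox1. The counting is not stated to use strand, and whether exons of Obox1 and Obox3 meet was not checked. How far a read can be assigned to a member was checked by asking which windows of 50 bases of its GENCODE transcripts also occur in transcripts of other genes. The share was 57.4% for Obox1 and 65.1% for Obox2, and most of it was shared between these members (56.4% of Obox1 windows occur in Obox2). It was 18.1% for Obox5, whose main partner was Obox7 (13.0% of Obox5 windows and 17.1% of Obox7 windows), and 21.1% for Obox7. For Obox3 it was 20.2%, mostly with pseudogenes such as Obox3-ps3 (14.5%). Obox6 shared 5.02% with Obox6-ps1 alone, Obox8 shared 0%, and Crxos shared 18.5%, none of it with a gene named Obox. Values therefore depend on how reads that match several genes were counted, which is not given in the sources used here. This limit concerns Obox1 and Obox2 most, then Obox5, Obox7, Obox3 and Crxos, and to a smaller degree Obox6.

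**Figure D1:**
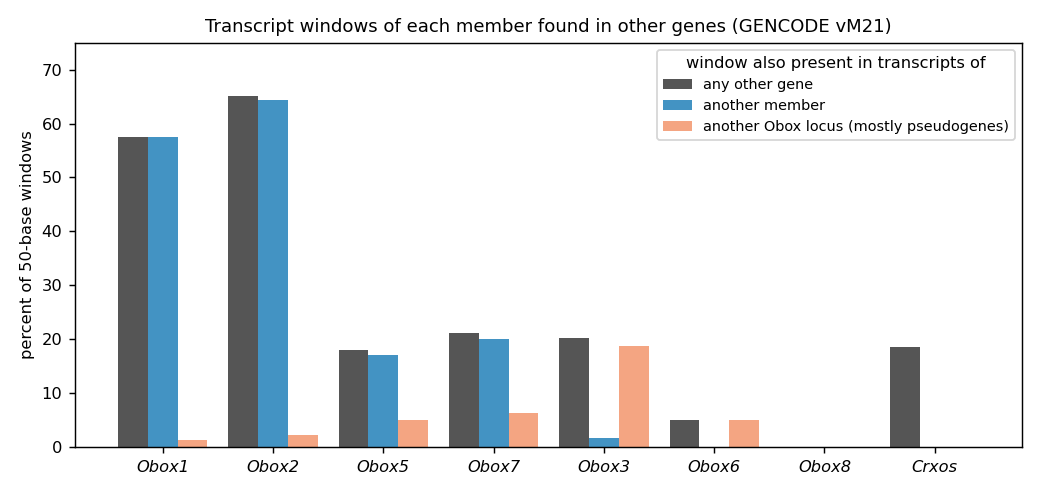
Bars give, for each member on the x axis, the percent (y axis, from 0) of its distinct 50-base transcript windows that also occur in transcripts of any other gene, of another member, or of another Obox locus. Obox1 and Obox2 share 57.4% and 65.1% of their windows with other genes, whereas Obox8 shares 0%.

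The coding sequences of the members were also compared. The stretch below encodes the helix of the homeodomain that reads DNA, found in the longest complete GENCODE vM21 coding sequence of each gene by the conserved residues of that helix. The capitals mark the codon for homeodomain position 50, which is known to set much of a homeodomain's choice of DNA.

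Obox1: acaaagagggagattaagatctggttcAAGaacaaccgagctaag
Obox5: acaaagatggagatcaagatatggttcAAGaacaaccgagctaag
Obox7: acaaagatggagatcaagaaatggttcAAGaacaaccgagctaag
Obox3: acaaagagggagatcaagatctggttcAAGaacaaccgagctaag
Obox6: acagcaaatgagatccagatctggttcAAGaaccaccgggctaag
Obox8: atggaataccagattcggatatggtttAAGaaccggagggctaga

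The codon was AAG, for lysine, in all 6 of these genes. Over the 180 bases of the homeobox, Obox1 and Obox3 had 173 identical bases, Obox1 and Obox5 172, and Obox5 and Obox7 170. Obox6 had 128 bases in common with Obox1 and Obox8 had 101. The search found no such helix in the longest complete coding sequences of Obox2 (151 codons) and Crxos (246 codons), which says only that these residues were not met there. Thus Obox3 was as close in its homeobox to Obox1 and Obox5 as these were to each other.

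Promoter windows of 300 bases from RefSeq (GRCm38.p6, 250 bases before to 50 after a start site) were at hand for 6 of the 8 members and not for Obox6 and Obox8. The windows of Obox1, Obox5, Obox7 and Obox3 held a common stretch of 116 bases. It is printed because Obox3 and the other 3 genes, which share it, responded to α-amanitin in opposite directions on the FPKM scale. Capitals mark the bases that lie in words of 12 bases common to all 4 windows.

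Obox1, chr7:15547159-15547274, plus strand: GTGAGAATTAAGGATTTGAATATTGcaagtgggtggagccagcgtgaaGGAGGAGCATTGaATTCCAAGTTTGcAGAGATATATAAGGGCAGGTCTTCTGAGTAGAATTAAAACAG
Obox5, chr7:15750260-15750375, plus strand: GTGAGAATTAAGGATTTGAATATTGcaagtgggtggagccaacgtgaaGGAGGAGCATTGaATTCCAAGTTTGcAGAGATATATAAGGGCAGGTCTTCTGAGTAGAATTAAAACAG
Obox7, chr7:14659624-14659739, plus strand: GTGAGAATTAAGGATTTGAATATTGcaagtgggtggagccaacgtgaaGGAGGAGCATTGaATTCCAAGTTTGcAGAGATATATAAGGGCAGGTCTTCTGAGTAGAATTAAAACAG
Obox3, chr7:15639771-15639886, minus strand: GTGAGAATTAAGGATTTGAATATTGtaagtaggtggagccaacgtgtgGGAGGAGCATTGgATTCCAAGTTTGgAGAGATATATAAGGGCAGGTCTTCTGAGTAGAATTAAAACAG

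Obox5 and Obox7 were identical over the stretch, Obox1 differed from each of them at 1 base, and Obox3 matched Obox5 at 110 of 116 bases. The last run of 42 bases was found in 4 of 32851 promoter windows, those of these genes. It also occurs in GENCODE transcripts of 5 genes, these 4 and Obox2, where it begins at base 204 of 1 transcript. The TATA-like word TATATAA, searched on both strands, was present in the windows of Obox1, Obox5, Obox7 and Obox3 and in 3.24% of all promoter windows. TAATCC, a word favoured by homeodomains with lysine at position 50, was present in the window of Obox3 and in 7.06% of all windows, and it was not in those of Obox1, Obox2, Obox5, Obox7 and Crxos. TATAAA was in the window of Obox3 alone among the 6 members (13.6% of all windows), and TAATTA and TAATTG were in none of them (5.29% and 8.0%).

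In two-cell NT embryos the family split by direction. Obox8, Obox6, Crxos and Obox3 were higher without than with α-amanitin, by log2 changes of 2.28 to 5.77, and passed both an adjusted p under 0.05 (limma-trend, Benjamini-Hochberg over all genes) and a 4-fold change. Obox1, Obox2, Obox5 and Obox7 were lower without than with the toxin, with log2 changes of -1.75 to -1.35, and passed the adjusted p but not the 4-fold change. By both criteria 4 of 8 members were called, all higher, where 11.1% of the 17196 genes tested were called higher and 1.58% lower. By the adjusted p alone 8 of 8 were called, against 47.4% of all genes (38.9% higher and 8.51% lower). The calls of the second group depended on the scale. FPKM were also scaled to the 47 ERCC spike-in RNAs found in all libraries, which takes the amount added to be equal. With this scaling none of Obox1, Obox2, Obox5 and Obox7 passed the test. The plot of the members by library shows the 4 combinations of set and treatment.

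**Figure D2:**
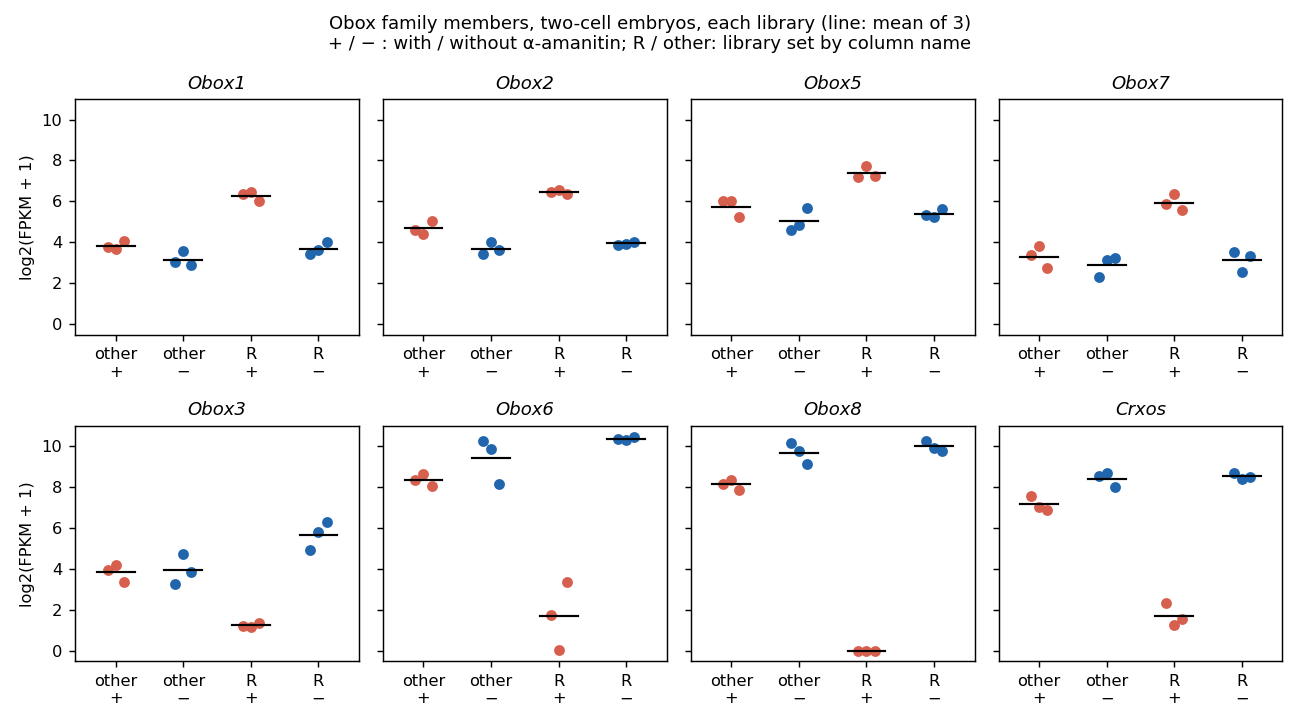
Each panel gives log2(FPKM + 1) of 1 member in each of the 12 two-cell libraries, with (+) and without (−) α-amanitin, for the set without R in the column names (other) and the set with R, with a line at the mean of 3. In the R set with α-amanitin, Obox8 is listed at 0 in all 3 libraries while Obox5 lies between 147 and 208 FPKM.

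Obox8 had the widest response of the 8 members on this scale. Without α-amanitin its FPKM was 1162, 866 and 557 in libraries NT1 to NT3 and 1246, 985 and 867 in R3, r1 and r2. With α-amanitin it was 290, 323 and 236 in Am1 to Am3 and was listed at 0 in RAm1, RAm2 and RAm3. The treated and untreated libraries did not overlap, which was so for 16.3% of all genes in this direction and 2.95% in the other. The mean was 947 ± 246 without and 141 ± 157 with the toxin (SD, n = 6), the log2 change on the log2(FPKM + 1) scale was 5.77 (SE 1.51, adjusted p = 0.00861), and the exact permutation test over samples gave p = 0.00216, two-sided, the smallest that 924 splits allow. With 3 libraries listed at 0, the size of this change depends on the added 1, and it also depended on the libraries: it was 4.96 without RAm1, RAm2 or RAm3 and 6.54 to 6.63 without Am1, Am2 or Am3.

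Obox6 was of similar level in untreated embryos, with FPKM of 1214, 946 and 286 in NT1 to NT3 and 1304, 1279 and 1409 in R3, r1 and r2. With α-amanitin it was 327, 402 and 264 in Am1 to Am3, and 2.40, 0.0228 and 9.21 in RAm1 to RAm3. Thus NT3 lay within the range of the Am libraries, whereas no R library came near the RAm libraries. Obox6 is known as a zygotic member of the family. Its log2 change was 4.87 (SE 1.32, adjusted p = 0.0102), with an exact permutation p = 0.00649, and the means were 1073 ± 416 without and 167 ± 184 with the toxin (SD, n = 6). The log2 change was 4.22 without RAm1, 3.87 without RAm2 and 5.47 to 5.59 without Am1, Am2 or Am3.

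Crxos, named for its position opposite to the Crx gene, encodes a homeodomain protein of the early embryo. Its FPKM was 369, 416 and 257 in NT1 to NT3 and 420, 341 and 366 in R3, r1 and r2. With α-amanitin it was 191, 132 and 118 in Am1 to Am3 and 3.97, 1.42 and 1.97 in RAm1 to RAm3. The groups did not overlap, the log2 change was 4.04 (SE 1.04, adjusted p = 0.00820), and the exact permutation p was 0.00216. The log2 change was 3.40 without RAm2 and 4.66 without Am1. The counting is not stated to use strand, so reads from Crxos and from genes on the opposite strand cannot be told apart.

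Obox3 was the lowest of the members that fell under α-amanitin. Its FPKM was 8.76, 25.7 and 13.7 in NT1 to NT3 and 29.5, 54.7 and 78.2 in R3, r1 and r2, against 14.2, 17.3 and 9.46 in Am1 to Am3 and 1.29, 1.26 and 1.60 in RAm1 to RAm3. The response was thus seen in the R set, while NT and Am libraries overlapped. Over all 12 libraries the log2 change was 2.28 (SE 0.66, adjusted p = 0.0138, exact permutation p = 0.0216). Without library r2 it was 1.98 and no longer 4-fold, which left 3 members called.

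Of the 48 further genes named Obox, 47 were annotated as pseudogenes, and 10 passed the filter on low values at the two-cell stage, 8 of them named Obox3-ps. These 10 had 9 higher and 0 lower, 8 of them by at least 4-fold, where 38.9% and 11.1% of all genes were higher by these criteria. In the R set alone 10 were higher (9 by 4-fold), against 60.5% and 33% of all genes, and in the other set alone 2 (1 by 4-fold), against 12.7% and 3.29%. Obox3-ps5, Obox3-ps6, Obox3-ps2 and Obox3-ps3 had the highest levels. Obox3-ps5 had a mean FPKM of 131 ± 96.3 without and 17.9 ± 17.1 with α-amanitin (SD, n = 6), a log2 change of 3.08 (adjusted p = 0.00414). The other 3 had log2 changes of 2.62 to 3.00. These loci share windows with Obox3, 8.44% of its windows in the case of Obox3-ps5, so their reads and those of Obox3 are not independent.

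Obox1, Obox2, Obox5 and Obox7, members known from oocytes, gave the opposite pattern on the FPKM scale. Obox5, the highest of them, was 22.9, 27.8 and 50.2 in NT1 to NT3 and 39.3, 36.4 and 48.9 in R3, r1 and r2, against 63.1, 62.7 and 36.3 in Am1 to Am3 and 147, 208 and 150 in RAm1 to RAm3. The RAm libraries stood above all others and the Am libraries overlapped the untreated ones. Its log2 change was -1.35 (SE 0.46, adjusted p = 0.0266, exact permutation p = 0.0152).

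Obox2 was the member of this group whose treated and untreated libraries did not overlap. It was 9.76, 15.3 and 11.1 in NT1 to NT3, 13.8, 14.1 and 15.3 in R3, r1 and r2, 23.3, 19.8 and 32.2 in Am1 to Am3, and 85.5, 92.8 and 81.9 in RAm1 to RAm3. The log2 change was -1.75 (SE 0.44, adjusted p = 0.00702, exact permutation p = 0.00216). Obox1, which shares most of its windows with Obox2, was 7.06, 10.9 and 6.31 in NT1 to NT3, 9.82, 11.2 and 15.1 in R3, r1 and r2, 12.6, 11.7 and 15.9 in Am1 to Am3, and 80.8, 85.4 and 64.5 in RAm1 to RAm3. Untreated library r2 exceeded 2 of the Am libraries. The log2 change of Obox1 was -1.64 (SE 0.54, adjusted p = 0.0239, exact permutation p = 0.0130).

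Obox7 was 3.85, 7.62 and 8.22 in NT1 to NT3, 10.4, 4.73 and 8.92 in R3, r1 and r2, 9.19, 13.0 and 5.57 in Am1 to Am3, and 56.7, 80.5 and 46.8 in RAm1 to RAm3. Only the RAm libraries stood apart. The log2 change was -1.62 (SE 0.58, adjusted p = 0.0342, exact permutation p = 0.0368). The calls of Obox1, Obox5 and Obox7 depended on single libraries: 3, 5 and 6 of the 12 fits that left out 1 library brought the adjusted p to between 0.0525 and 0.0775. For Obox1 these were the fits without RAm1, RAm2 or RAm3 (log2 changes of -1.44 to -1.36), for Obox5 also those without NT1 or NT2 (-1.27 to -1.12), and for Obox7 those 5 and the one without r1 (-1.64 to -1.27).

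On the FPKM scale the levels of these mRNAs are shares of the library, and the libraries differed in what else they held. Spike-in RNAs took 8.77% to 11.3% of the reads in RAm, 6.54% to 8.93% in Am, 3.15% to 6.26% in NT and 2.38% to 2.81% in R libraries. Gm10925, annotated as a pseudogene, took 19.8% to 21.6% of the reads in RAm libraries and 3.56% to 4.58% in R libraries. The median log2 change over all genes was 0.67 with FPKM as deposited, 1.49 with spike-in scaling and 0.24 with median-of-ratios scaling.

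With spike-in scaling, Obox1 changed by -0.30 (95% interval -1.47 to 0.87, adjusted p = 0.640), Obox2 by -0.39 (-1.41 to 0.63, adjusted p = 0.470), Obox5 by 0.044 (-1.05 to 1.13, adjusted p = 0.941) and Obox7 by -0.32 (-1.52 to 0.88, adjusted p = 0.619), so that each interval included 0 and left out a 4-fold change. At this scale 73% of all genes passed the adjusted p (71.4% higher and 1.63% lower) and 34.4% also changed by 4-fold (34.2% higher and 0.163% lower). Obox8, Obox6, Crxos and Obox3 changed by 6.71, 6.08, 5.27 and 3.41 (adjusted p from 0.000444 to 0.000716), and all 4 were called. With median-of-ratios scaling, Obox1, Obox2, Obox5 and Obox7 changed by -2.42, -2.54, -2.16 and -2.38 and were all called by both criteria, whereas Obox3 changed by 1.64 and was not. Of all genes, 9.58% were called at that scaling (5.11% higher and 4.47% lower). Relative to the median of all genes, Obox1, Obox2, Obox5 and Obox7 lay at -2.42 to -2.02 with FPKM and at -1.89 to -1.45 with spike-in scaling.

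**Figure D3:**
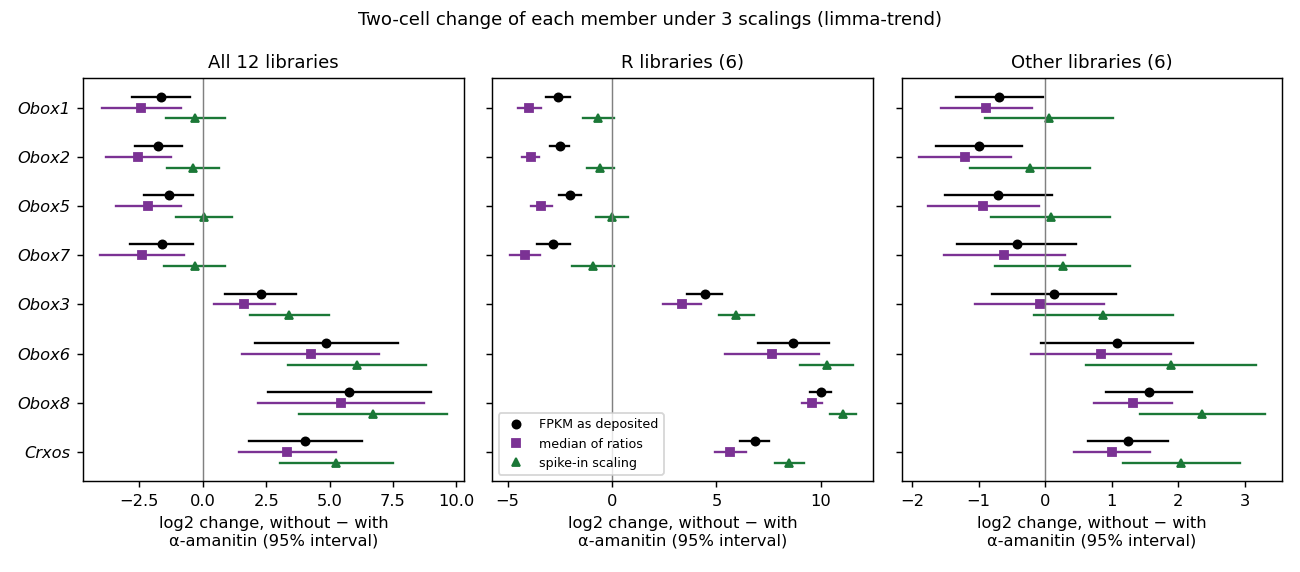
Points give the log2 change of each member, without minus with α-amanitin, and lines its 95% interval, for FPKM as deposited, median-of-ratios scaling and spike-in scaling, over all 12 two-cell libraries, the 6 R libraries and the 6 other libraries (x axes differ). With spike-in scaling the intervals of Obox1, Obox2, Obox5 and Obox7 include 0 in each panel.

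The sets differed. In the R set alone, 8 of 8 members passed the adjusted p, against 76.8% of 14387 genes (60.5% higher and 16.4% lower), and 7 also changed by 4-fold or more (39.2% of genes, 33% higher and 6.17% lower). Obox6, Crxos and Obox3 were 8.66, 6.83 and 4.43 higher on the log2 scale, which for Obox3 corresponds to means of 54.2 ± 24.3 against 1.38 ± 0.19 FPKM and for Crxos to 376 ± 40.6 against 2.45 ± 1.34 (SD, n = 3). Obox1, Obox2, Obox5 and Obox7 changed by -2.59, -2.51, -1.99 and -2.81, with adjusted p of at most 0.000183. With spike-in scaling the same 4 changed by -0.65, -0.56, 0.01 and -0.91, with adjusted p of 0.0807 to 0.989, where 86% of all genes passed (80.7% higher and 5.28% lower). Treated and untreated libraries of the R set did not overlap for any of the 8 members, where 73.1% of all genes did not overlap (58.1% higher and 15% lower).

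In the other set, Obox8 (log2 change of 1.55, adjusted p = 0.0130) and Crxos (1.24, adjusted p = 0.0204) were higher without the toxin and Obox2 was lower (-0.995, adjusted p = 0.0472). The remaining 5 did not pass: Obox6 changed by 1.08 (adjusted p = 0.168), Obox3 by 0.13 (0.849), Obox1 by -0.69 (0.134), Obox5 by -0.70 (0.201) and Obox7 by -0.43 (0.474). Thus 3 of 8 were called by the adjusted p where 16.9% of 14285 genes were (12.7% higher and 4.18% lower), and 0 by the 4-fold change as well (3.78% of genes, 3.29% higher and 0.49% lower). Treated and untreated libraries of this set did not overlap for Obox8, Crxos, Obox2 and Obox1, and for 35.1% of all genes (24.7% higher and 10.4% lower). With spike-in scaling Obox6, Obox8 and Crxos passed, with log2 changes of 1.89, 2.36 and 2.04, and Obox2 did not (-0.23, adjusted p = 0.674), where 30.2% of all genes passed (29.5% higher and 0.77% lower). For Obox6 this call therefore depended on the scale.

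The difference between the sets was itself tested, as an interaction of set and treatment in the fit over all 12 libraries. It passed for 8 of 8 members on the FPKM scale, where 44.5% of all genes passed (36% higher and 8.46% lower). The response in the R set exceeded that in the other set by 8.44 for Obox8, 7.58 for Obox6, 5.59 for Crxos and 4.30 for Obox3 on the log2 scale (adjusted p of at most 0.000109). For Obox1, Obox2, Obox5 and Obox7 it was lower by -1.90, -1.51, -1.28 and -2.38 (adjusted p from 0.00131 to 0.0327). With spike-in scaling the first 4 kept a difference, of 5.08 to 8.70, whereas for the last 4 it was -0.70, -0.33, -0.08 and -1.17, with adjusted p from 0.128 to 0.911. Of all genes 53.2% passed at that scaling (50.5% higher and 2.72% lower). Set and time of transfer cannot be told apart from the column names, nor can set and any other property of these libraries.

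A measure that needs no scaling between libraries is the share of Obox1, Obox2, Obox5 and Obox7 in the summed FPKM of the 8 members. It was 96.4% to 99.4% in RAm, 2.39% to 3.14% in R, 10.9% to 12.6% in Am and 1.56% to 6.38% in NT libraries, so that treated and untreated libraries did not overlap in either set. In FPKM, the sum of these 4 members was 343 to 467 in RAm and 66.5 to 88.3 in R libraries, and that of the others was 2.71 to 12.8 and 2659 to 2999. In the four-cell experiment the share was 0.308% to 1.14% with and 0.110% to 0.672% without α-amanitin. It was 0.646% to 2.46% in D and 0.137% to 0.487% in DR. Because the members were divided by their response, these shares are a description.

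**Figure D4:**
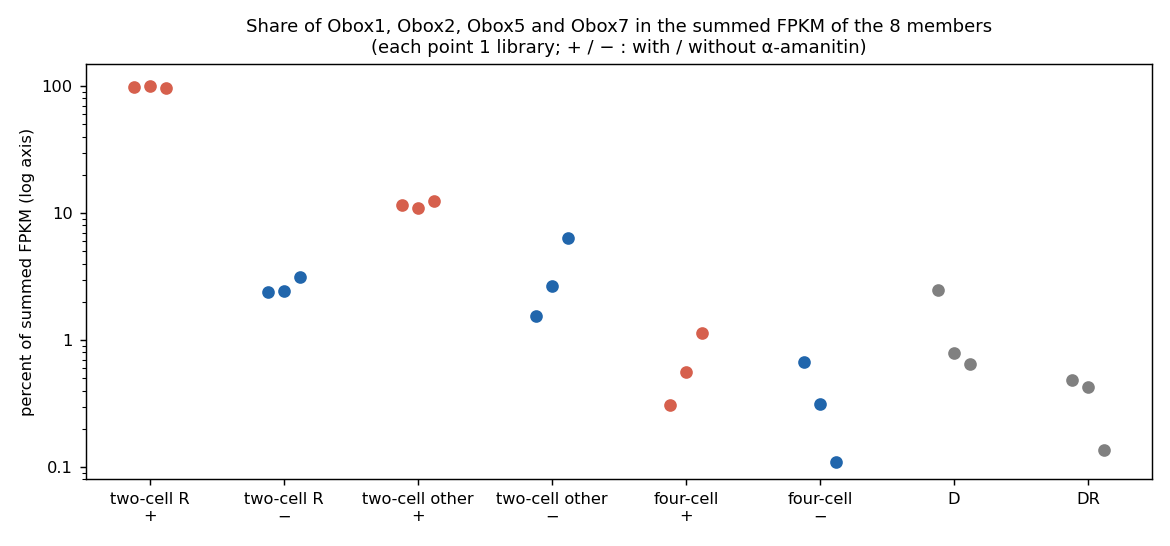
Each point gives, for 1 library, the percent of the summed FPKM of the 8 members that came from Obox1, Obox2, Obox5 and Obox7 (log axis), by experiment, set and treatment. The 3 two-cell R libraries with α-amanitin lie at 96.4% or above, and all four-cell, D and DR libraries lie at 2.46% or below.

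In untreated two-cell embryos the order of levels was Obox6 (1073 ± 416 FPKM), Obox8 (947 ± 246), Crxos (362 ± 59.7), Obox5 (37.6 ± 11), Obox3 (35.1 ± 26.5), Obox2 (13.2 ± 2.30), Obox1 (10.1 ± 3.19) and Obox7 (7.30 ± 2.53), as mean and SD over 6 libraries. This order joins both sets: in the NT libraries the mean of Obox8 (862) lay above that of Obox6 (815), and in the R libraries that of Obox3 (54.2) lay above that of Obox5 (41.5). Obox6 and Obox8 differed by less than their spread, as did Obox5 and Obox3, Obox3 and Obox2, Obox2 and Obox1, and Obox1 and Obox7. In rank, Obox6 was between the 45th and the 48th gene in the R libraries and between the 51st and the 297th in the NT libraries. In the RAm libraries the order was Obox5 (168 ± 34.5), Obox2 (86.7 ± 5.57), Obox1 (76.9 ± 10.97), Obox7 (61.3 ± 17.3), Obox6 (3.88 ± 4.77), Crxos (2.45 ± 1.34), Obox3 (1.38 ± 0.19) and Obox8, listed at 0 (SD, n = 3).

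In four-cell NT embryos, Obox6, Crxos and Obox8 were abundant with as well as without α-amanitin, and Obox1, Obox2, Obox3, Obox5 and Obox7 were low in both. Of the 8 members, 6 passed the filter on low values, and 0 were called by both criteria or by the adjusted p alone (limma-trend), where 6.57% (6.2% higher and 0.364% lower) and 12.2% (11.1% higher and 1.13% lower) of 9884 genes were. At an unadjusted p under 0.05 there were 2 members, Obox2 and Obox8, both lower without the toxin, where 28.9% of all genes reached it.

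Obox6 had FPKM of 1924, 1231 and 390 with α-amanitin in libraries S16, S18 and S8, and of 933, 1298 and 1279 without it in S15, S17 and S7. The ranges overlapped, with S16 highest and S8 lowest of all 6, and the log2 change was 0.25 (95% interval -0.89 to 1.39, adjusted p = 0.778). Crxos was 655, 759 and 603 with and 532, 723 and 810 without the toxin, again overlapping, with a log2 change of 0.02 (-0.48 to 0.51, adjusted p = 0.968). With median-of-ratios scaling both signs turned, to -0.065 and -0.30. The interval for Crxos leaves out a 4-fold change, and that for Obox6 does as well.

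Obox8 was 569, 841 and 511 with and 422, 234 and 93.1 without α-amanitin, so that it was higher in each treated library than in any untreated one. These are shares of the library, and without listed spike-in reads they could not be put on the spike-in scale used at the two-cell stage. The log2 change was -1.57 (95% interval -2.67 to -0.47, adjusted p = 0.0676), and with median-of-ratios scaling it was -1.89 and passed the test (adjusted p = 0.0448). Without library S7 it was -0.99 (adjusted p = 0.155). The exact permutation test gave p = 0.1, the smallest that 3 against 3 libraries allow. Obox2 showed the same order, with 4.90, 7.48 and 9.18 with and 3.73, 2.32 and 0 without the toxin, and a log2 change of -1.67 (adjusted p = 0.108, exact permutation p = 0.1), which was -1.01 without S7. Groups that did not overlap were found for 35.2% of all genes tested, 7.56% in this direction and 27.6% in the other.

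The low members rested on few reads. Obox2 had 25, 14 and 24 reads with and 14, 7 and 0 reads without α-amanitin. Obox5 had 23, 14 and 23 against 16, 14 and 10 reads, at 3.47, 5.77 and 6.78 against 3.29, 3.58 and 2.16 FPKM, a log2 change of -0.64 (adjusted p = 0.348). Obox1 had 8, 6 and 4 against 13, 3 and 1 reads, and its log2 change was -0.39 (adjusted p = 0.646). Obox7 was listed at 0 in all treated libraries and had 10, 1 and 0 reads in the untreated ones, and Obox3 had 4 reads in S15 and 0 in the other 5 libraries, so neither passed the filter. In the fit without a filter their log2 changes were 0.78 and 0.21 (adjusted p = 0.444 and 0.527).

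**Figure D5:**
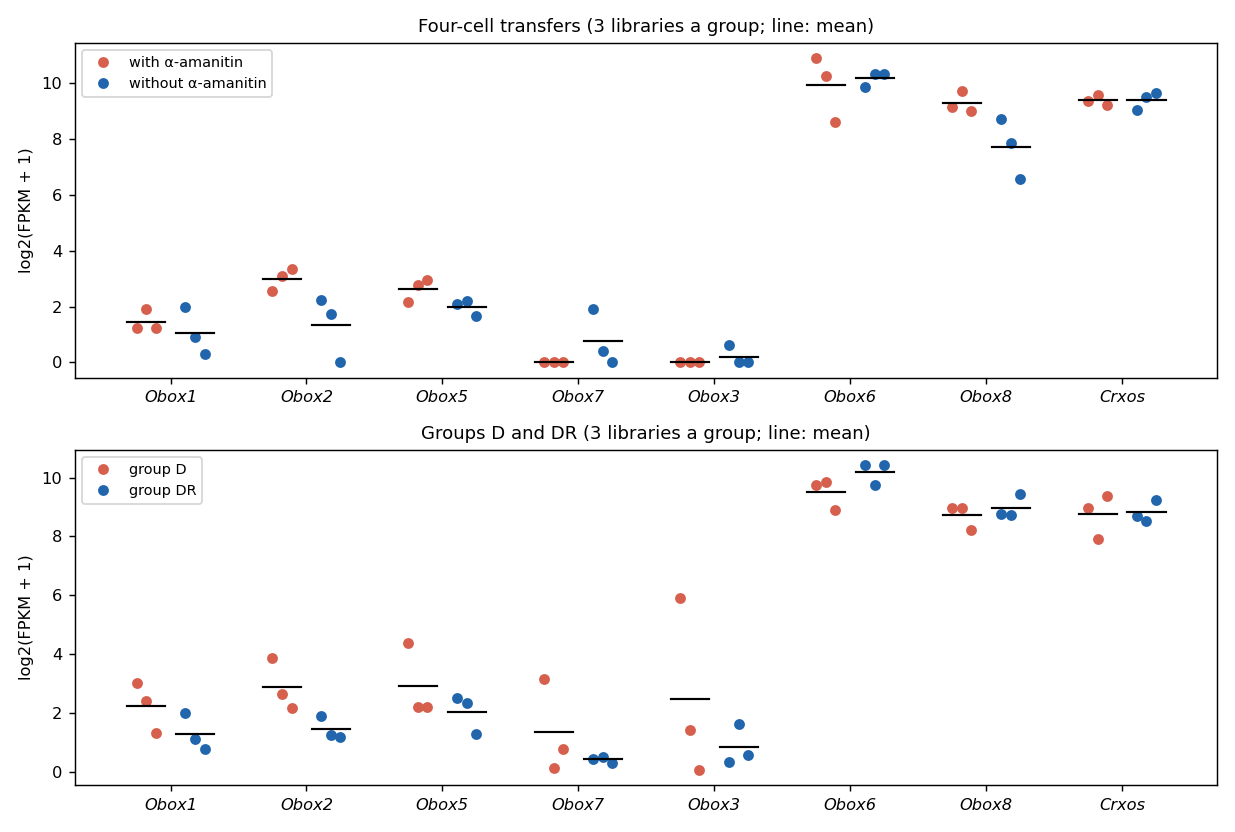
Log2(FPKM + 1) of each member in the 6 four-cell libraries (upper panel, with and without α-amanitin) and in the 6 libraries of the groups D and DR (lower panel), with a line at the mean of 3. Obox6, Obox8 and Crxos lie above the other members in both experiments, and in group D library D1 lies highest for Obox1, Obox2, Obox3, Obox5 and Obox7.

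In groups D and DR, also four-cell recipients, Obox6, Obox8 and Crxos again lay above the other 5 members, of which Obox5 had the highest mean in DR and Obox3 in D. None of the 7 members that passed the filter was called (limma-trend), and of 14570 genes 0% were called, with 897 genes (6.16%) at an unadjusted p under 0.05, among them Obox2. Obox6 was 1363, 858 and 1373 in DR1 to DR3 and 861, 916 and 474 in D1, D4 and D5, a log2 change of 0.70 (SE 0.31, adjusted p = 0.788) from D to DR. Obox8 was 432, 420 and 688 in DR and 497, 502 and 298 in D (log2 change of 0.25), and Crxos was 415, 371 and 607 in DR and 504, 240 and 662 in D (0.07). The ranges of all 3 overlapped. With spike-in scaling their signs turned, to -0.95, -1.40 and -1.57, none past the test. At this scaling the SE was 2.35 to 2.39, on 19 spike-ins found in all libraries, and the scaling factors within D ranged from 0.0945 to 5.65, so it says little about these members.

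Obox2 was 2.76, 1.38 and 1.28 in DR and 13.7, 5.23 and 3.49 in D, without overlap, which 12.2% of all genes showed, 3.99% in this direction and 8.21% in the other. Its log2 change was -1.44 (SE 0.48, adjusted p = 0.788, exact permutation p = 0.1) and was -0.95 without library D1. D1 stood apart for the lower members. Obox3 was 59.1 in D1 against 1.71 and 0.0544 in D4 and D5 and 0.274, 2.11 and 0.481 in DR. Obox5 was 19.7 in D1 against 3.64 and 3.66 in D4 and D5 and 4.71, 4.03 and 1.44 in DR. Obox7, which did not pass the filter, was 8.0 in D1 and at most 0.701 in the other 5 libraries. Pseudogenes moved with them: Obox3-ps5 was 101 in D1 and 0.303 to 8.97 elsewhere. Obox3 without D1 could not be tested, as it no longer passed the filter.

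Across the experiments the values stand side by side only, since the tables were made separately and differed in how many values were whole reads. Untreated Obox6 was 286 to 1409 FPKM at the two-cell stage, 933 to 1298 at the four-cell stage and 474 to 1373 in D and DR. With α-amanitin it was 0.0228 to 402 at the two-cell stage and 390 to 1924 at the four-cell stage. Obox6, Obox8 and Crxos were higher without α-amanitin past the test at the two-cell stage and not at the four-cell stage, and the difference between stages was not tested.

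Other homeobox genes of the embryo and oocyte gave a mixed result. Of 25 listed, 22 were present at the two-cell stage and 7 passed the filter. With FPKM over all 12 libraries 3 were higher and 3 lower without α-amanitin, none by 4-fold, where 38.9% and 8.51% of all genes were. The median log2 change of the list was -0.36 against 0.67 over all genes. With spike-in scaling 3 were higher, all by 4-fold, and 1 lower, where 71.4% of all genes were higher (34.2% by 4-fold) and 1.63% lower. With median-of-ratios scaling 3 were higher and 3 lower (2 by 4-fold), where 3768 and 2443 of 17196 genes were. In the R set alone 3 were higher, all by 4-fold, and 3 lower (1 by 4-fold), where 60.5% and 16.4% of genes were. In the other set alone 0 of 6 were higher and 1 lower, where 12.7% and 4.18% were. Nobox, a regulator of oocyte genes, was 0.227 ± 0.325 without and 5.16 ± 4.86 with the toxin, and Sebox was 1.15 ± 0.94 and 9.60 ± 11.9 (SD, n = 6). Their log2 changes were -1.93 and -1.92 (adjusted p = 0.00736 and 0.00829). Duxbl2 and Duxbl1 were higher without it, by 1.78 and 1.77. In the four-cell and replication experiments 6 and 10 of the list were tested and 0 passed. There the named genes were Rhox9, Rhox5, Rhox6 and Nanog, with log2 changes of 1.56, 2.47, 0.39 and 0.32 at the four-cell stage, and Rhox9, Rhox5, Nanog and Duxbl2, with -1.86, -1.52, 0.85 and -0.50 from D to DR.

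Of 28 genes of the two-cell burst of transcription, most were higher without α-amanitin at the two-cell stage. There 26 were tested, 20 were higher past the test (18 by 4-fold) and 1 was lower, with a median log2 change of 2.93, where 38.9% of all genes were higher (11.1% by 4-fold). With spike-in scaling 20 were higher and 0 lower, where 71.4% and 1.63% of all genes were. The counts were 19 and 0 in the R set alone, where 60.5% and 16.4% of genes were. In these settings the higher counts were not far above the share of all genes. With median-of-ratios scaling they were 17 and 6, where 3768 and 2443 of 17196 genes were. In the other set alone they were 17 and 4 of 25 tested, where 12.7% and 4.18% of genes were. Tdpoz5 (log2 change of 5.94), Gm8300 (5.57), Tcstv3 (5.37) and Gm2016 (5.33) changed most. Of this list 14 were tested in four-cell embryos, 10 were higher (8 by 4-fold) and 0 lower, with a median of 3.33 against 0.37 over all genes, of which 11.1% were higher (6.2% by 4-fold). Gm2016 was 62.1 ± 4.89 without and 0.122 ± 0.211 with the toxin (SD, n = 3), Gm8300 was 37.7 ± 28.2 without and was listed at 0 with it, Eif1a, a translation initiation factor, was 239 ± 55.7 and 10.5 ± 7.25, and Usp17lb was 18.4 ± 13.6 and listed at 0. In the replication experiment 21 were tested and 0 passed, and Gm2016, Dppa2, Eif1a and Gm8300 had log2 changes of -0.50, 0.32, 0.01 and -0.48. Library D1 was again the highest for Gm2016 (1927, with 21.0 as the lowest in D) and Gm8300 (667, with 14.2 as the lowest), and its part in the result was not tested.

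Of 24 maternal mRNAs listed, most were lower without α-amanitin at the two-cell stage on the FPKM scale. There 22 were tested, 17 were lower past the test (8 by 4-fold) and 1 was higher, with a median log2 change of -1.50, where 8.51% of all genes were lower (1.58% by 4-fold). In the R set alone 17 of 20 tested were lower (10 by 4-fold), where 16.4% of all genes were (6.17% by 4-fold). In the other set alone 9 of 19 were lower (2 by 4-fold), where 4.18% were (0.49% by 4-fold). With median-of-ratios scaling 17 were lower (15 by 4-fold), where 2443 of 17196 genes were (4.47% by 4-fold). With spike-in scaling 2 were lower and 2 higher, where 1.63% and 71.4% of all genes were. The median at that scaling was -0.34 against 1.49 over all genes. Oosp1 (-2.90), Nlrp14 (-2.83), Zp2 (-2.67), a protein of the zona pellucida, and Oog1 (-2.60) changed most on the FPKM scale. In four-cell embryos 19 were tested, 0 were higher and 2 were lower, where 11.1% and 1.13% of all genes were. The lower ones were Nlrp14 (-1.98, adjusted p = 0.0328) and Zp3 (-1.69, adjusted p = 0.0399). Dppa3 and Khdc3 had log2 changes of -0.54 and 2.14 there and did not pass. Of 18 tested in the replication experiment 0 passed, with log2 changes of -0.41 for Dppa3, 1.09 for Khdc3, 0.40 for Npm2 and 0.45 for Zp3.

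The genes most like each member over the 12 two-cell libraries, by Pearson's r of log2(FPKM + 1), were Gm4222 for Crxos (r = 0.999), Gm8416 for Obox8 (0.998), Nudt21 for Obox6 (0.995), Obox3-ps2 for Obox3 (0.987), Arhgap20os for Obox2 (0.989), Gm13180 for Obox1 (0.988), Gm13103 for Obox5 (0.973) and Gm47913 for Obox7 (0.970). Gm4222 and Obox3-ps2 share windows with Crxos (4.37%) and Obox3 (9.29%). Between members, r was 0.995 for Obox8 and Crxos, 0.974 for Obox1 and Obox2, 0.962 for Obox5 and Obox7, and -0.968 for Obox2 and Obox8. The points are 4 combinations of set and treatment, and they share their libraries, so these values describe group differences.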

How the data were processed

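Members and gene lists were chosen with earlier results of these data known. The authors trimmed reads with Trimmomatic, Trim Galore and cutadapt, mapped them to mm10 with STAR and, per the submitters' processing notes, counted them with featureCounts. Versions, strand and the treatment of reads with several matches are not given in the sources used here. The deposited tables hold FPKM as the authors calculated them. Per library, FPKM times gene length in kilobases sums to 1000000. Four-cell values were whole reads (100% within 0.01), whereas 40.3% to 50.5% were whole elsewhere, so depths there are approximate.

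Here, limma 3.58.1 (R 4.3.3) with a mean-variance trend was run on log2(FPKM + 1) for genes that reached an FPKM of 1 in 3 or more libraries. P-values were adjusted by Benjamini-Hochberg over all genes. Called genes had an adjusted p under 0.05 and, where stated, a 4-fold change. The sign is without minus with α-amanitin, or DR minus D. Log2 changes understate the change of low genes. Exact permutation tests were two-sided. The fit was tested on simulated data. All 8 members were named. For each list, up to 4 genes were named, by size of change among those past the test, then by mean FPKM. Alternatives were a pseudocount of 0.1, no filter, median-of-ratios and spike-in scaling, single libraries left out, a replicate block, and, added after the data were seen, the column sets (alone, as a block, and their interaction with treatment) and the denominator. A block for transfer time was not run, since column names do not give it. Spike-in scaling was not run for the four-cell libraries, in which no spike-in reads were listed. Replicates were pools of embryos, given as independent biological replicates in the study's methods. In the replication table, 4 columns with values per library match no label and were not used. The oryx table, which holds the authors' own comparison beside normalized values of oryx genes, was not used.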

Additional observations from a re-analysis of the deposited data

Results flagged for a closer look

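For each of the 8 members, the response to α-amanitin at the two-cell stage differed between the column set with R and the other set, by a tested interaction (limma-trend, adjusted p from 6.75e-08 to 0.0327). The response in the R set minus that in the other set was 8.44 for Obox8, 7.58 for Obox6, 5.59 for Crxos, 4.30 for Obox3, -1.28 for Obox5, -1.51 for Obox2, -1.90 for Obox1 and -2.38 for Obox7 on the log2 scale. The last 4 did not pass with spike-in scaling, where 53.2% of all genes did. With FPKM as deposited 44.5% of 17196 genes passed (36% higher and 8.46% lower), so a difference between the sets was not particular to these members.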

How the results depend on the processing

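At the two-cell stage the count of 4 called members stayed at 3 to 4 when single libraries were left out and became 7 with median-of-ratios scaling (3 higher, 4 lower), 7 in the R set alone, 0 in the other set alone and 8 without the 4-fold criterion. It was 5 without Gm10925 and spike-ins in the denominator, and 4 with a pseudocount of 0.1, without a filter, with spike-in scaling, with the column set as a block and with the replicate block. Obox5 turned to 0.044 with spike-in scaling. Without a filter, the adjusted p of Obox1 and Obox7 rose to 0.0589 and 0.0857. Same-numbered libraries had deviations correlated by 0.0149 to 0.0654 over 6 pairs, and differently numbered ones by -0.0951 to 0.0304 over 12 pairs. All these correlations were small, and the numbers were not taken as pairs in the main fit. The replicate block changed no call of the 8 members, while over all genes the counts were slightly different, with 1878 genes called higher and 273 lower against 1906 and 272.

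At the four-cell stage and between D and DR, the count of members called by both criteria was 0 in all alternatives run. Spike-in scaling was not among these at the four-cell stage, so the results there stay on the scale of library shares. By the adjusted p alone Obox8 passed at the four-cell stage with median-of-ratios scaling (-1.89, adjusted p = 0.0448). No paired analysis was run, because the four-cell columns share no replicate number and those of D and DR share number 1 alone. Untreated and treated four-cell columns carry neighbouring numbers (S7 and S8, S15 and S16, S17 and S18). No label gives these as pairs, and such a pairing was not tested. Signs of uncalled members turned at the four-cell stage with median-of-ratios scaling (Obox6 -0.065, Crxos -0.30), without S8 (Obox6 -0.41, Crxos -0.06), without S17 (Crxos -0.03) and without S7 (Crxos -0.11). With single libraries left out, Obox6 ranged from -0.41 to 0.74 and Crxos from -0.11 to 0.19 there. Between D and DR they turned with spike-in scaling (Obox6 -0.95, Obox8 -1.40, Crxos -1.57), without DR3 (Crxos -0.14) and without D4 (Crxos -0.35), with Crxos at -0.35 to 0.38 over the single libraries left out. The causes were not tested.

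Over all genes, 4-fold calls at the two-cell stage were 1906 higher and 272 lower. They were 4411 and 639 with a pseudocount of 0.1, 878 and 769 with median-of-ratios scaling, 5885 and 28 with spike-in scaling, and 1560 and 436 without Gm10925 and spike-ins in the denominator. At the four-cell stage 613 and 36 became 259 and 5 without a filter, 450 and 54 with median-of-ratios scaling, and 55 to 836 higher when single libraries were left out (lowest without S7). Low four-cell members rest on at most 25 reads a library, which limits what could be seen there.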
